A study of Chlorocebus sabaeus with 4 samples.

Results

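The genes described here make, regulate, take up, store and export cholesterol. The set holds 41 genes chosen by name for these functions, and 38 of them had a value, out of 19775 genes measured in all. FDFT1 and NR1H2 were named by no probe set, and CYP51A1 only by 2 probe sets that also name another gene, so these 3 are given no value. The members were read in 5 roles: synthesis (15 of 17 measured), regulation (5 of 5), uptake and transport inside the cell (6 of 6), ester storage and hydrolysis (5 of 5), and efflux with its liver X receptor (LXR) and oxysterol genes (7 of 8).

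The tissue was the corpus luteum, the ovarian gland that forms after ovulation and secretes progesterone. It came from 2 adult female vervet monkeys (Chlorocebus sabaeus), each aged 16 years. Monkey 1030 ate ad libitum and monkey 1031 was calorie restricted, and no other treatment or genotype is named. Each animal gave 2 samples of frozen whole luteal tissue, numbered 1 and 2, to follow weight change within that animal. Which number came first is not stated, nor how long the diet lasted. There is 1 animal per diet and 1 array per sample number, so a change within an animal (sample 2 minus sample 1, on the log2 scale) has no replicate and no test. Such a change is called higher or lower when it reaches 2-fold, a rule of size only.

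Luteal cells turn cholesterol into progesterone, and most of it reaches them in lipoproteins. The scavenger receptor SCARB1 moves cholesteryl esters from high-density lipoprotein into steroid-making cells, and receptors of a separate family, to which VLDLR and LRP8 belong, internalise whole particles, whose cholesterol leaves the lysosome through NPC2 and NPC1. When membrane cholesterol is low, SCAP escorts the transcription factors SREBF1 and SREBF2 out of the endoplasmic reticulum, where INSIG proteins otherwise hold them, and the genes of synthesis are switched on. When cholesterol is plentiful, oxysterols activate the LXRs, which switch on the exporters ABCA1 and ABCG1 and the ligase MYLIP, and surplus cholesterol is esterified by SOAT1.

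Signals are log2 values per probe set, and 31 of the 38 members lay at or above the median gene (5.26), the level filter used for fits and for the background of all genes. Ad libitum sample 2 stood apart from the other 3 arrays, with 912 to 1031 of 9888 genes 2-fold from each, against 122 to 333 among the others. Luteal marker genes lay above the median gene on every array, though in ad libitum sample 2 HSD11B1 was only 5.68 and HSD3B2 6.06. Their summed linear signal was 27993.9 and 4129.7 in ad libitum samples 1 and 2. It was 11362.9 and 19004.5 in calorie restriction samples 1 and 2. All 7 luteal markers were 2-fold lower in ad libitum sample 2 (median -3.49), and 4 of 7 were 2-fold higher in calorie restriction sample 2 (median 1.03). Macrophages, endothelium and theca also handle sterols. The summed signal of 12 macrophage markers was 3708.2 and 5204.3 in the ad libitum and 4707.2 and 4939.6 in the calorie restriction samples. That of 10 endothelial markers was 2653.6 and 1250.3 against 4076.2 and 3043.4. That of 3 theca markers was 1679.3 and 6092.3 against 1543.4 and 521.5, and that of 5 oocyte markers was 67.2 and 640.8 against 64.7 and 60.4. Of the oocyte markers, only ZP4 and ZAR1 lay past the filter. Smooth muscle and pericyte markers summed to 8148.7 and 9529.6 against 6195.9 and 8234.3. This sum covers opposite 2-fold changes in the ad libitum animal, of MYH11 (1.01) and RGS5 (-1.205). In whole tissue, fewer cells of a type and less RNA per cell cannot be told apart.

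**Figure D1:**
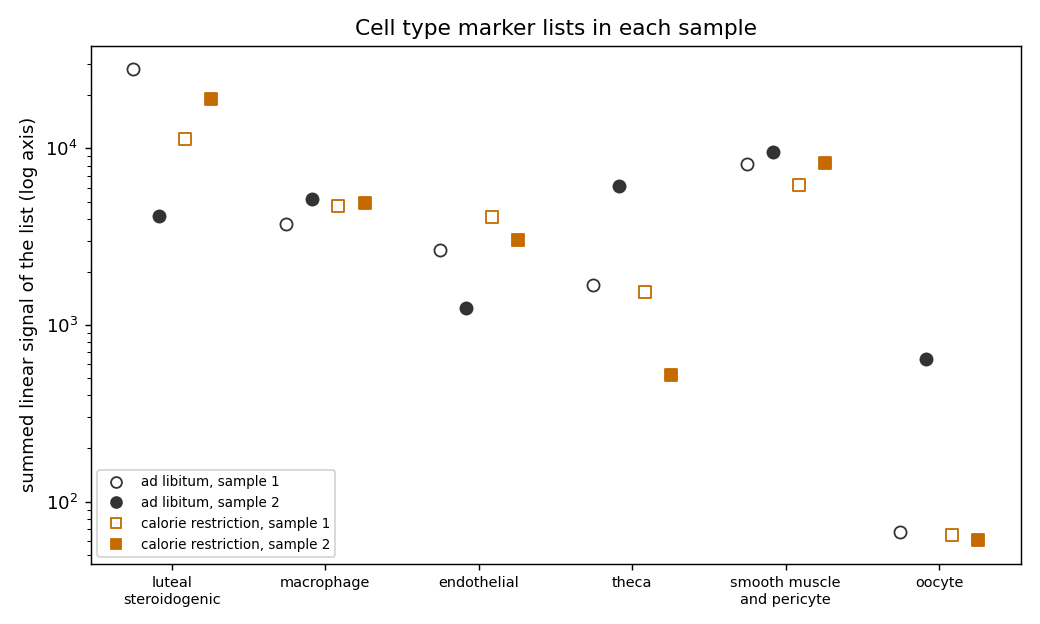
Summed linear signal of 6 cell type marker lists in each of the 4 samples, on a log axis; circles are the ad libitum and squares the calorie restriction animal, open for sample 1 and filled for sample 2. Luteal markers are lowest in ad libitum sample 2 (4129.7), where theca (6092.3) and oocyte (640.8) markers are highest.

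Within the ad libitum animal, 3 of 6 uptake genes and 2 of 15 synthesis genes were 2-fold lower in sample 2, and 2 of 7 efflux genes and 1 of 5 ester genes were 2-fold higher. Over the 38 members, 5 were 2-fold lower (SCARB1, LRP8, MSMO1, SQLE and STARD4) and 3 were 2-fold higher (CYP27A1, PLTP and CES1). Of the 31 members past the level filter, 4 were lower and 3 higher, where 6.58% of all genes past the filter were lower and 2.67% higher. At 1.5-fold, 6 of the 38 were lower and 9 higher, where 15.2% of all genes were lower and 9.54% higher. The median change was -1.03 for uptake and transport, -0.21 for synthesis, 0.44 for regulation, 0.26 for ester genes and 0.70 for efflux, against -0.013 over all genes past the filter.

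In the calorie restriction animal, the members differed less. On the brightest probe sets, LRP8 alone was 2-fold higher in sample 2, and none of the 38 was 2-fold lower. Of all genes, 0.496% were higher and 0.738% lower. A second SCARB1 probe set (mean 8.25) was also past 2-fold there, at 1.12. At 1.5-fold, 2 of the 38 were lower and 2 higher, against 3.93% and 2.01% of all genes. The role medians were 0.086 for uptake and transport, 0.050 for synthesis, -0.14 for regulation, -0.0097 for ester genes and -0.30 for efflux, against -0.026 over all genes.

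**Figure D2:**
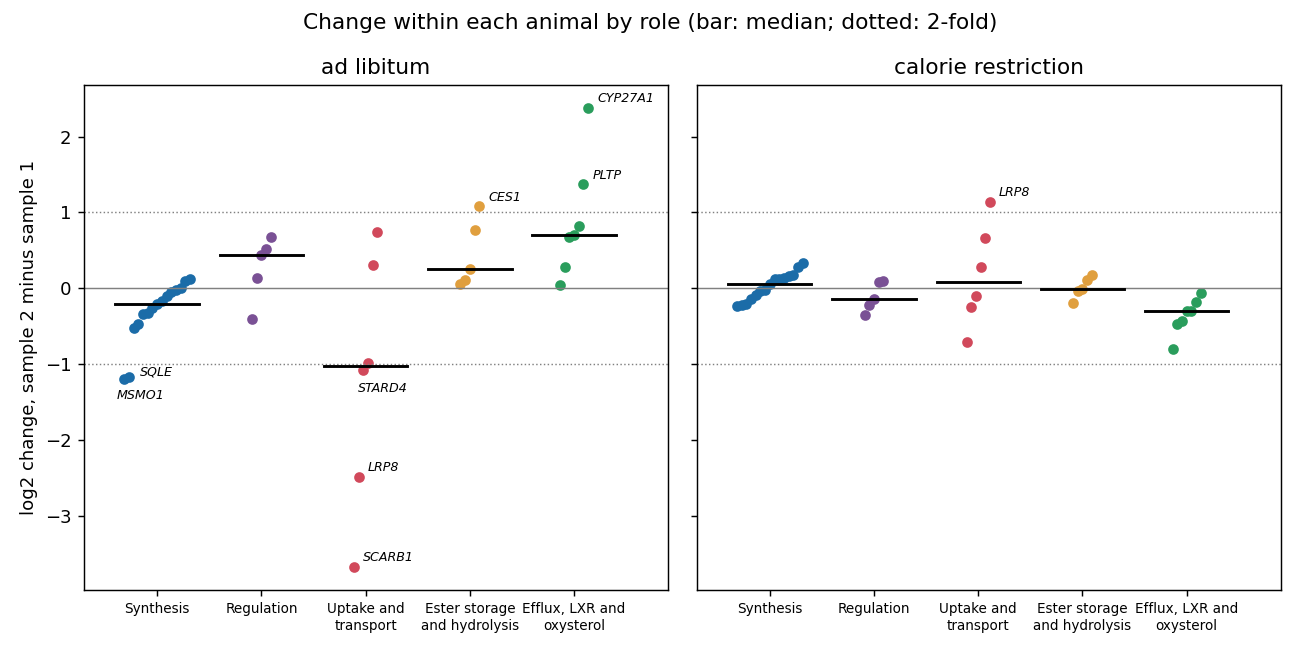
Log2 change from sample 1 to sample 2 for each measured member in 5 roles, in the ad libitum animal (left) and the calorie restriction animal (right); bars are role medians and dotted lines mark 2-fold. In the ad libitum animal the uptake median is -1.03 and the efflux median 0.70, and in the calorie restriction animal they are 0.086 and -0.30.

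Among the uptake genes, SCARB1 had the largest change of any member on the brightest probe set of each gene. Its signal was 10.91 and 7.24 in ad libitum samples 1 and 2, and 8.64 and 9.30 in calorie restriction samples 1 and 2. The ad libitum animal thus held both the highest and the lowest of the 4 values, with the calorie restriction samples between them. The difference was 12.8-fold lower in ad libitum sample 2 (log2 change -3.68), which 0.233% of all genes past the filter matched or passed, and 1.59-fold higher in calorie restriction sample 2 (0.67). With its 5 probe sets averaged, the ad libitum change was -1.81, smaller than those of LRP8 (-2.50) and CYP27A1 (2.38).

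LRP8 is a receptor for apolipoprotein E and reelin. Its signal was 9.98 and 7.49 in the ad libitum samples and 8.84 and 9.98 in the calorie restriction samples. Ad libitum sample 1 and calorie restriction sample 2 were alike, and ad libitum sample 2 was lowest. It was 5.61-fold lower in sample 2 of the ad libitum animal (-2.49) and 2.20-fold higher in that of the calorie restriction animal (1.14). Its close relative VLDLR did not follow this order, at 8.40 and 8.70 in the ad libitum and 9.30 and 8.59 in the calorie restriction samples (changes of 0.30 and -0.71). MYLIP is the ubiquitin ligase that marks both of these receptors for breakdown. It was lowest in ad libitum sample 1, where LRP8 was among the highest but VLDLR was lowest. MYLIP and VLDLR were both highest in calorie restriction sample 1. The MYLIP signal was 8.83 and 9.502 in the ad libitum and 10.06 and 9.27 in the calorie restriction samples, changes of 0.67 and -0.80.

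The genes that move cholesterol inside the cell were divided. NPC1, the membrane exporter of the lysosome, was 8.85 and 7.87 in the ad libitum and 8.42 and 8.70 in the calorie restriction samples. Its ad libitum change of -0.98 was just under 2-fold, and was -0.21 with its probe sets averaged. Its soluble partner NPC2 changed the other way, from 11.70 to 12.45 (0.75), and was 11.98 and 11.88 in the calorie restriction animal (-0.11). STARD4, a cytosolic sterol carrier below the level filter, was 4.46 and 3.37 in the ad libitum samples (-1.08) and 3.84 and 3.59 in the others (-0.25). Of the 6 uptake genes, SCARB1, LRP8 and NPC1 had a negative ad libitum and a positive calorie restriction change. VLDLR and NPC2 had the opposite pair of signs, and STARD4 was negative in both. The luteal marker sums moved with SCARB1, LRP8 and NPC1 in both animals, and their part in these changes was not tested.

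**Figure D3:**
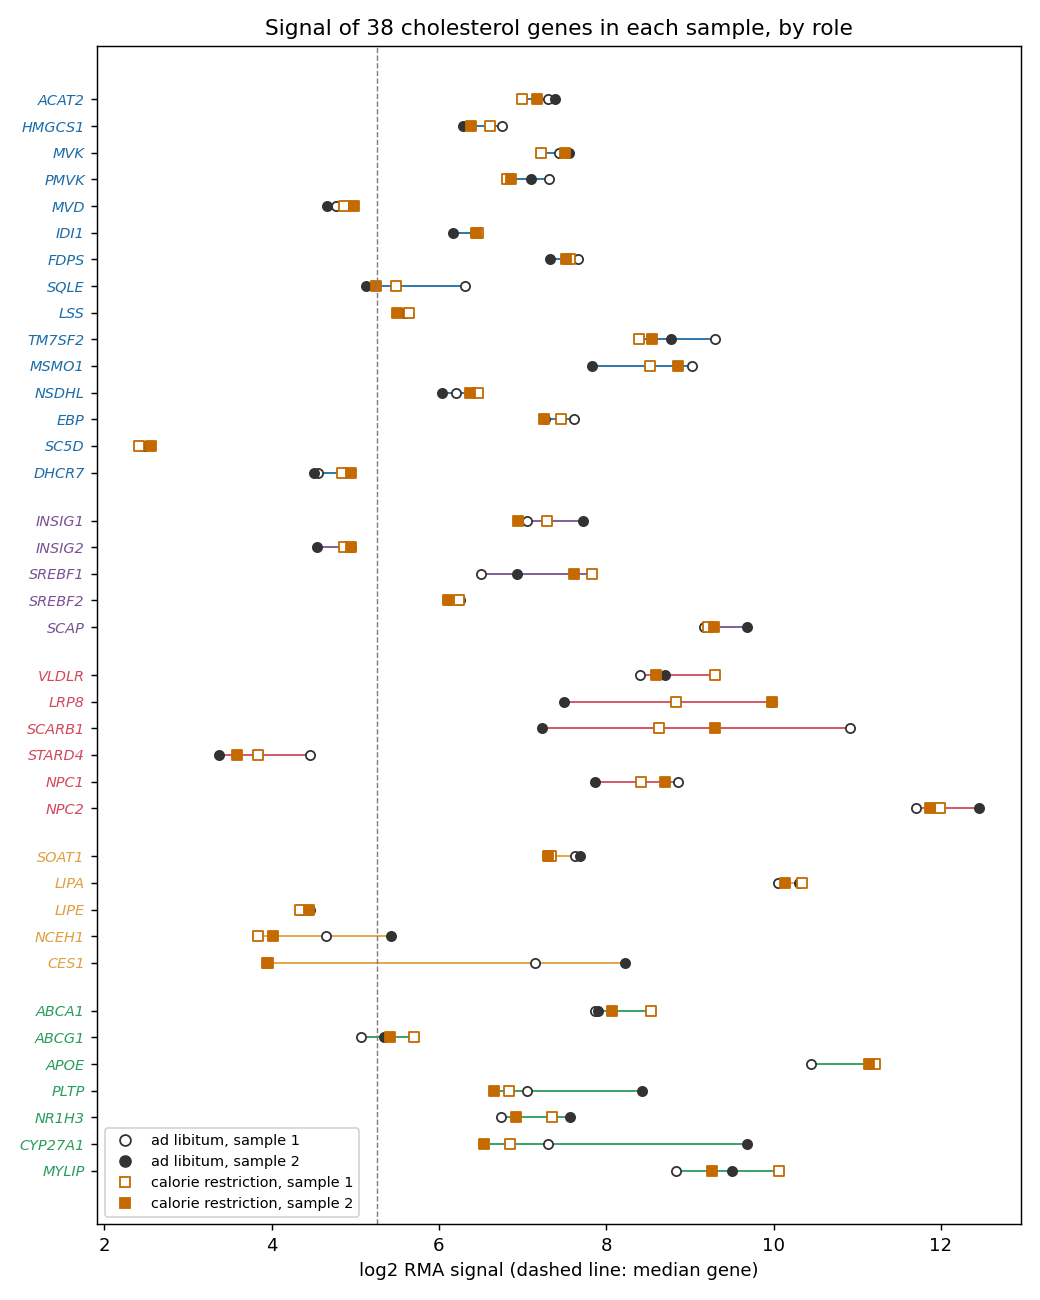
Log2 signal of the 38 measured members in each of the 4 samples, grouped and coloured by role; circles are the ad libitum and squares the calorie restriction animal, open for sample 1 and filled for sample 2, and the dashed line is the median gene (5.26). SCARB1 spans 7.24 to 10.91 and CES1 spans 3.94 to 8.23, while LSS, SREBF2 and LIPE hardly spread.

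The genes of synthesis changed little, apart from a pair of enzymes in its later steps. SQLE, squalene epoxidase, a rate-controlling enzyme, was 6.31 in ad libitum sample 1 and 5.13 in sample 2, and 5.48 and 5.24 in the calorie restriction samples. The first of these 4 values stood above the rest, and the ad libitum change was -1.18 (2.26-fold lower) against -0.24. With its probe sets averaged it was -0.51, no longer 2-fold. MSMO1, a methylsterol oxidase, was 9.03 and 7.83 in the ad libitum and 8.52 and 8.85 in the calorie restriction samples. Its ad libitum sample 2 was lowest, with changes of -1.20 and 0.33. TM7SF2, a sterol reductase, was 9.30, 8.77, 8.39 and 8.55 in the same order, so its values did not overlap between animals (changes of -0.53 and 0.16).

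On the brightest probe sets, the early steps from acetyl-CoA to farnesyl diphosphate stayed within 1.5-fold in each animal. HMGCS1, which makes HMG-CoA, was 6.76 and 6.29 in the ad libitum and 6.61 and 6.38 in the calorie restriction samples (-0.47 and -0.22). The prenyl synthase FDPS changed by -0.33 and -0.04, and the isomerase IDI1 by -0.27 and -0.02. A second IDI1 probe set of nearly the same mean (6.27 against 6.38) gave -0.79 and -0.06, past 1.5-fold in the ad libitum animal. The kinase PMVK changed by -0.21 and 0.05, and the decarboxylase MVD, below the level filter, by -0.11 and 0.12. The thiolase ACAT2 (0.09 and 0.18) and the kinase MVK (0.12 and 0.28) had positive changes in both animals. Of the sterol steps, the cyclase LSS was 5.60, 5.58, 5.64 and 5.50 over the 4 samples, a range that was narrower only in SC5D and LIPE among the members. The isomerase EBP (-0.35 and -0.21) and the dehydrogenase NSDHL (-0.17 and -0.09) were negative in both. Another EBP probe set past the filter gave -0.77 and 0.24, so its sign in the calorie restriction animal depends on the probe set. DHCR7, a reductase of the last steps (-0.05 and 0.12), and SC5D (0.01 and 0.13) lay below the filter, and SC5D at 2.42 to 2.56 was the dimmest member. In all, 12 of 15 synthesis genes had an ad libitum change below 0, with 2 at 2-fold, where 51.4% of all genes past the filter were below 0. In the calorie restriction animal 7 of 15 were negative, against 54.3% of all genes. None of the 15 had a positive ad libitum change together with a negative one in the other animal, a pair of signs found in 30.2% of all genes.

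None of the 5 regulators of synthesis was 2-fold apart in either animal. INSIG1, which retains the SREBP precursors and is itself an SREBP target, was 7.06 and 7.73 in the ad libitum and 7.29 and 6.94 in the calorie restriction samples. The highest value was thus in ad libitum sample 2, where SQLE and MSMO1 were lowest (changes of 0.67 and -0.35). INSIG2, below the filter, had the other sign (-0.41 and 0.09). SREBF2, the main activator of the sterol genes, was 6.12, 6.25, 6.24 and 6.10 over the 4 samples, changes of 0.13 and -0.14. Another SREBF2 probe set of nearly the same mean signal (6.14 against 6.18) gave -0.28 and 0.03, so neither sign is settled. The escort SCAP was 9.16 and 9.68 in the ad libitum and 9.21 and 9.29 in the calorie restriction samples (0.52 and 0.08). SREBF1, whose SREBP-1c form is induced by LXR and drives fatty acid genes, changed by 0.44 and -0.22, and it differed more between the animals than within them.

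On the brightest probe sets, ester storage and hydrolysis genes had positive changes in the ad libitum animal, and only that of CES1 reached 2-fold. SOAT1, which esterifies cholesterol for storage, was 7.63 and 7.69 in the ad libitum and 7.34 and 7.30 in the calorie restriction samples. A second SOAT1 probe set past the filter (mean 5.66) changed by -1.52 and 0.17, so its ad libitum direction is not settled. LIPA, the acid lipase that frees cholesterol in lysosomes, was 10.05, 10.31, 10.34 and 10.14 (0.26 and -0.20). LIPE, the hormone-sensitive lipase that mobilises stored esters, was below the filter at 4.36, 4.46, 4.35 and 4.45. NCEH1, a neutral cholesterol ester hydrolase described in macrophages, was also below it, at 4.66 and 5.43 in the ad libitum and 3.84 and 4.02 in the calorie restriction samples. CES1, a carboxylesterase that can hydrolyse esters, was 7.15 and 8.23 in the ad libitum samples (2.11-fold higher in sample 2, 1.08) and 3.95 and 3.94 in the calorie restriction samples (-0.01). All 5 changes on the brightest probe sets were positive in the ad libitum animal, from 0.06 to 1.08. Those of the calorie restriction animal lay between -0.20 and 0.18.

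Efflux, LXR and oxysterol genes had the same pair of signs throughout: all 7 measured members lay higher in ad libitum sample 2 and lower in calorie restriction sample 2. The background for that pair is 30.2% of genes. CYP27A1, a mitochondrial hydroxylase that makes an oxysterol from cholesterol, had the largest change. Its signal was 7.30 and 9.68 in the ad libitum samples and 6.85 and 6.54 in the calorie restriction samples. Ad libitum sample 2 stood well above the other 3, at 5.20-fold above sample 1 (2.38), a change that 0.121% of all genes matched or passed. PLTP, which transfers phospholipid between lipoproteins, was 7.06 and 8.43 in the ad libitum and 6.83 and 6.65 in the calorie restriction samples (1.37 and -0.18).

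NR1H3, which encodes LXR alpha, was 6.75 and 7.57 in the ad libitum and 7.35 and 6.92 in the calorie restriction samples (0.82 and -0.43). APOE, a carrier of exported cholesterol, was 10.45 and 11.15 in the ad libitum and 11.21 and 11.14 in the calorie restriction samples, so ad libitum sample 1 was below the other 3 (0.70 and -0.07). The exporters themselves changed little. ABCA1 was 7.86 and 7.90 in the ad libitum and 8.54 and 8.06 in the calorie restriction samples (0.04 and -0.47), and ABCG1 was 5.06, 5.34, 5.71 and 5.41 (0.28 and -0.30). Macrophage markers had a median change of 0.28 in the ad libitum animal, with 2 of 12 markers 2-fold higher (AIF1 at 1.23 and FCER1G at 1.05) and 1 lower (CD163 at -1.28), and a median of -0.034 in the calorie restriction animal. Theca markers had a median of 1.19 in the ad libitum animal and, with INSL3 and CYP17A1 2-fold lower, a negative one in the other, the same pair of signs as the efflux genes, and oocyte markers had medians of 1.85 and -0.25. The part of these cell types in the efflux and ester changes was not tested.

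**Figure D4:**
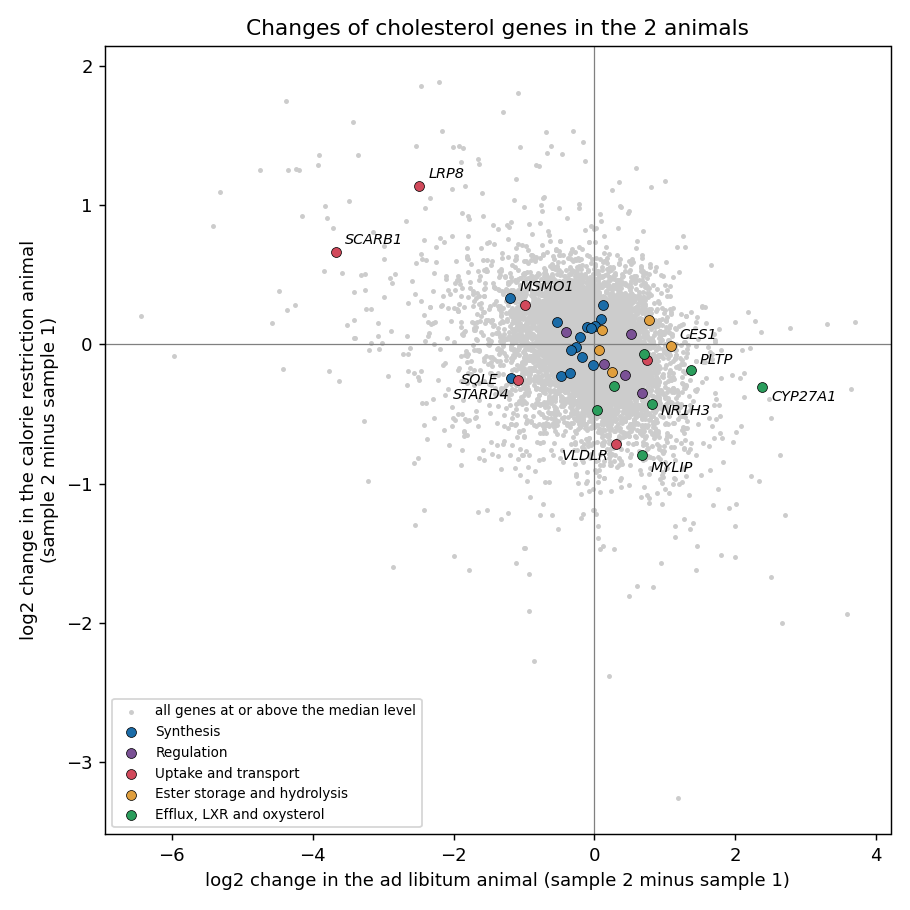
Log2 change in the calorie restriction animal against that in the ad libitum animal; grey points are the 9888 genes at or above the median level and coloured points the members by role. SCARB1 (-3.68 and 0.67) and LRP8 (-2.49 and 1.14) lie at upper left, and CYP27A1 (2.38 and -0.30) and MYLIP (0.67 and -0.80) at lower right.

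The series concerns both gain and loss of weight, so opposed changes in the 2 animals were set side by side. SCARB1 and LRP8 were at least 1.5-fold lower in the ad libitum animal and 1.5-fold higher in the other, as were 1.18% of all genes. MYLIP was 1.5-fold higher and then lower, as were 1.45% of all genes. By sign alone, 9 of 38 members were negative in the ad libitum and positive in the calorie restriction animal, where the share over all genes was 27.3%, and 15 of 38 (39.5%) had the reverse pair. Among the 31 past the filter these counts were 6 and 15. If the samples of a single animal had been numbered in the other order, these opposed pairs would be common ones.

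In the limma fit that blocked on animal, an opposed change was called at an adjusted p under 0.05 (Benjamini-Hochberg) in 0 of 31 members and 0% of 9888 genes. This fit has 1 residual degree of freedom, the change common to both animals, moderated over all genes. Its p-values and intervals thus reflect how unequal in size the 2 changes were, and not the spread of repeated samples. In the fit of the common change the residual is the opposed change. At an unadjusted p under 0.05 it held 738 genes (7.46%) and 6 members, namely LRP8, MYLIP, SCARB1, NR1H3, MSMO1 and CYP27A1, whose adjusted p lay between 0.63 and 0.66. The fit estimates the ad libitum minus the calorie restriction change, divided by 2. For LRP8 this was -1.81 with a 95% interval from -2.74 to -0.89, and for SCARB1 it was -2.17 with an interval from -3.95 to -0.39. For MYLIP it was 0.73, from 0.19 to 1.28. For a change common to both animals, 0 genes (0%) and 0 members passed, and 180 genes (1.82%) and 0 members had an unadjusted p under 0.05. The smallest unadjusted p among members was 0.058, for SQLE, with a mean change of -0.71. A second SQLE probe set, just below the filter, changed by 0.39 and 0.33, and a dimmer one by -0.996 and 0.12. The sign of this common change therefore depends on the probe set.

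Between the animals, CES1 differed most. Its 2 ad libitum values (7.15 and 8.23) and its 2 calorie restriction values (3.95 and 3.94) lay far apart, a mean difference of 13.4-fold (log2 -3.74, 95% interval from -4.72 to -2.76, n = 2 samples of 1 animal each). The limma unadjusted p was 0.00022 and the adjusted p 0.44. CES1 was the only listed member whose symbol was not found in the RefSeq vervet annotation (assembly mChlSab1.0.hap1), and it rests on a single human probe set of less specific design. Whether that probe set reads the same sequence in both animals was not tested.

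CYP27A1 was also lower in the calorie restriction animal, without overlap (-1.79, interval from -3.84 to 0.26, adjusted p = 0.88). NCEH1, below the filter and so not fitted, was 2.16-fold lower there (-1.11). SREBF1 went the other way, at 6.498 and 6.94 in the ad libitum and 7.83 and 7.61 in the calorie restriction samples. Its mean difference was 2.01-fold (1.01, interval from 0.40 to 1.61), with an unadjusted p of 0.0083 and an adjusted p of 0.73. Its other probe set, below the filter, was 4.58 and 4.56 against 4.64 and 4.61, and with both averaged the difference was 0.53, under 2-fold. On the brightest probe sets these were the 4 members 2-fold apart without overlap, 3 lower and 1 higher in the calorie restriction animal. Past the filter they were 2 and 1, where 1.27% of all genes were lower and 1.81% higher. CES1 is among these 2 only through its ad libitum values. Without ad libitum sample 2 the 4 became 3 (SREBF1, SCARB1 and CES1), and without ad libitum sample 1 they became 6 (LRP8, SCARB1, NCEH1, CES1, PLTP and CYP27A1). CES1 stayed in both sets, which was fixed in advance, since its closest values (7.15 and 3.95) already lie over 2-fold apart.

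In the fit of this difference, 0% of 9888 genes and 0 of 31 members passed the adjusted threshold, with 522 genes (5.28%) and 2 members (CES1 and SREBF1) at an unadjusted p under 0.05. Without ad libitum sample 1 it called 3 members, CES1 (adjusted p = 0.0065), CYP27A1 (0.012) and PLTP (0.026), and 4.79% of all genes. That fit leaves the ad libitum animal with a single sample, the array that stood apart, so the spread comes from the calorie restriction pair, the closest of all pairs (122 genes 2-fold apart), and the lone sample is assumed to vary alike. With 1 animal per diet, these p-values reflect how samples of an animal vary and say nothing of how animals vary. Values did not overlap in 12 of the 31 members past the filter, where 35.3% of all genes did not, a share near the background. Besides CES1, CYP27A1 and SREBF1, these 12 held ABCA1 (0.42), ABCG1 (0.36), NSDHL (0.30) and IDI1 (0.16), higher in the calorie restriction animal. Lower there were PLTP (1.99-fold), TM7SF2 (-0.56), PMVK (-0.37), SOAT1 (-0.34) and ACAT2 (-0.26). With averaged probe sets, 18 of all 38 members did not overlap, against 15 on the brightest. The share over all genes with averaged probe sets is not given here, so the 18 has no background.

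Genes that neighbour these steps but are no members were read from 5 further lists. Of all genes past the filter, 6.58% were 2-fold lower and 2.67% higher in ad libitum sample 2. In calorie restriction sample 2, 0.738% were lower and 0.496% higher. Against these shares, a single gene in a list of 10 or 11 is near the background. In the mitochondrial use of cholesterol for steroids, 4 of 5 genes were 2-fold lower in ad libitum sample 2 and 2 were 2-fold higher in calorie restriction sample 2. STAR (-3.49 and 1.03), which delivers cholesterol to the side-chain cleavage enzyme, and HSD3B2 (-3.91 and 1.36), which completes progesterone, were in both counts. The cleavage enzyme itself, CYP11A1 (-2.19 and 0.77), and its electron donor FDX1 (-2.25 and 0.59) were in the first. These 4 genes are also among the luteal markers above, so both counts repeat values already given. The isoprenoid branch, which uses farnesyl diphosphate for other products, had 1 of 10 genes 2-fold lower in the ad libitum animal, the dolichol kinase DOLK (8.18 and 6.67, -1.51). Sterol transfer proteins had 1 of 11 lower, GRAMD1B (8.06 and 6.88, -1.18), which carries cholesterol from the plasma membrane to the endoplasmic reticulum. The SREBP processing list had none of 7 at 2-fold in either animal, with medians of -0.24 and -0.05.

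The other efflux and oxysterol genes did not share the pattern of the 7 members. None of 13 was 2-fold apart in either animal, and their medians were -0.35 and 0.023, of opposite sign to the members' 0.70 and -0.30. Over all 46 measured genes of these lists, 6 were 2-fold lower and none higher in the ad libitum animal, against 6.58% and 2.67% of all genes. In the other animal none was lower and 2 were higher, against 0.738% and 0.496%. The luteal markers STAR, CYP11A1, FDX1 and HSD3B2 are among the 6, and STAR and HSD3B2 are the 2.

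Probe sets that target different parts of a transcript bear on how far these values can be read. Of the 38 members, 22 had more than 1 probe set, and the brightest was used. All 3 probe sets of LRP8 had negative ad libitum changes, of -2.49, -2.97 and -2.06, and positive calorie restriction changes, of 1.14, 0.87 and 1.00. For SCARB1, the 3 brightest gave -3.68, -3.64 and -1.70, while a pair at or below a mean of 4.08 gave 0.18 and -0.20. In the calorie restriction animal the 3 brightest gave 0.67, 1.12 and 0.77, and the pair 0.15 and 0.32. MYLIP had 6 probe sets, all positive in the ad libitum animal (0.20 to 0.68) and all negative in the other (-0.97 to -0.05). The 3 probe sets of APOE (0.70, 0.36 and 0.63) and the 4 of ABCG1 (0.28, 0.68, 0.78 and 0.16) had a single sign in the ad libitum animal.

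Probe sets disagreed for SOAT1 and SQLE. A second SOAT1 probe set past the filter, with a mean of 5.66, was 6.55 and 5.03 in the ad libitum samples (-1.52), where the brightest gave 0.06. The second SQLE probe set, at a mean of 5.2566 just below the filter of 5.2575, gave 0.39 against -1.18 for the brightest (mean 5.54), and a dimmer one gave -0.996. The third IDI1 probe set gave 0.51 against -0.27. The ad libitum direction of SOAT1, SQLE, IDI1 and SREBF2 therefore depends on the probe set. Among the 15 other probe sets past the filter, the sign of the one used was shared by 12 for the ad libitum change and by 11 for the calorie restriction change. CYP27A1, PLTP, CES1, MSMO1, STARD4, NPC2, NR1H3, VLDLR, SCAP and NCEH1 each rest on 1 probe set.

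**Figure D5:**
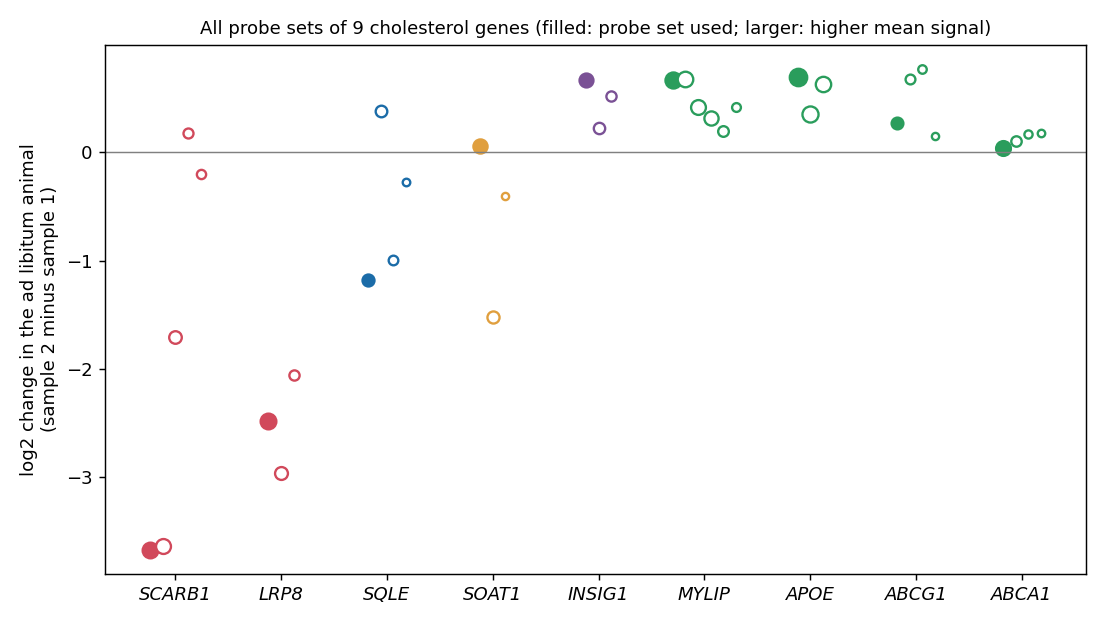
Log2 change in the ad libitum animal for every probe set of 9 members; filled points are the probe set used and larger points have a higher mean signal. LRP8 probe sets lie between -2.97 and -2.06, MYLIP probe sets are all above 0, and those of SOAT1 spread from -1.52 to 0.06.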

How the data were processed

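Labelled cRNA from total luteal RNA was hybridised to 4 arrays with human probe sets, per the labels' protocols. The authors deposited 1 log2 signal for each probe set. They used RMA, which corrects background, equalises array distributions and summarises probes, in Affymetrix Power Tools, per the submitters' processing notes, with versions not given in the sources used here. Median signal per array was 3.96 to 4.00. Scanner files were not used here. A human probe can mismatch the vervet transcript and dim a gene.

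Of 54675 probe sets, 62 controls were left out and 41091 with 1 gene symbol were kept. A gene was represented by its brightest probe set, and genes at or above the median (log2 5.26, 9888 genes) were fitted; members were described at any level. A change was sample 2 minus sample 1. Common, opposed and between-animal differences were fitted with limma 3.58.1 in R 4.3.3 (lmFit, eBayes with trend, Benjamini-Hochberg over all fitted genes, threshold 0.05), the first pair with animal as a block. The script was tested on simulated data. The number of arrays limits the precision.

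The members, lists and tests were chosen with earlier results of these data known. Every member is accounted for, with values for those 2-fold apart and the main genes of each role. Other genes were named if 2-fold apart in either animal. Alternatives were a 1.5-fold threshold, other level filters, cyclic loess, quantile normalisation repeated, averaging the probe sets of a gene, leaving out less specific probe sets, no trend, sample number as a block, and leaving out each sample. Promoter sequences were not analysed here.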

Additional observations from a re-analysis of the deposited data

Results flagged for a closer look

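Changes of at least 1.5-fold in opposite directions in the 2 animals were found in SCARB1, LRP8 and MYLIP. The ad libitum change minus the calorie restriction change was -4.34 for SCARB1, -3.63 for LRP8 and 1.47 for MYLIP on the log2 scale. Each animal gave a single change, and limma's test of the opposed change did not pass for any of the 3 (adjusted p from 0.63 to 0.66). Luteal markers had median changes of -3.49 (ad libitum) and 1.03 (calorie restriction), and their part in these values was not tested.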

How the results depend on the processing

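For 19 single-gene changes of 1.5-fold or more, 72 values came from cyclic loess, quantile normalisation repeated, averaged probe sets, or more specific probe sets alone. None reversed, and 8 moved by over 0.25. Some of the 72 could not move. Averaging leaves a gene with 1 probe set as it was. Leaving out less specific probe sets does the same where the brightest probe set was kept. With averaged probe sets, the uptake median in the ad libitum animal was -0.65, with SCARB1 at -1.81, SQLE at -0.51 and NPC1 at -0.21. That left 4 members 2-fold lower in the ad libitum animal, and the small calorie restriction medians of uptake (-0.031), regulation (0.046) and ester genes (0.024) changed sign. Without less specific probe sets, 28 members had a value. Then 1 was 2-fold higher in ad libitum and 0 in calorie restriction sample 2, and MYLIP came to 0.20 and -0.05. Between animals, 5 of the 28 did not overlap. Shares over all genes are not given for this setting or for averaged probe sets. With the brightest probe sets, 35.3% of genes past the filter did not overlap. At 1.5-fold, 6 were lower and 9 higher in the ad libitum animal, where 15.2% and 9.54% of all genes were, and 2 lower and 2 higher in the other, where 3.93% and 2.01% were. Leaving out each sample in turn, 0 to 3 members were called between animals, and 3 to 6 were 2-fold apart without overlap, an alternative added after seeing the data, as were other normalisations for the count without overlap. Shares over all genes that were 2-fold apart without overlap are not given for these leave-one-out sets. With all 4 samples they were 1.27% lower and 1.81% higher. With sample number as a replicate block 0 members were called. The 2 changes had a Pearson r of -0.27 over 9888 genes, and with crossed numbers as a block, added later, 0 members and 0 genes were called (809 at an unadjusted p under 0.05). Leave-one-out values for changes within an animal do not exist, since each has 1 array on each side.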

Other observations

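A few genes outside the set are named here after their values were seen. CH25H, which makes an oxysterol outside mitochondria, lay below the level filter at 4.21 and 3.83 in the ad libitum and 5.50 and 5.45 in the calorie restriction samples. It was higher in the calorie restriction animal (1.45), whereas CYP27A1, the mitochondrial oxysterol enzyme, was lower there (-1.79). APOC1, an exchangeable apolipoprotein, was 7.83 and 6.95 in the ad libitum and 8.13 and 8.29 in the calorie restriction samples, changes of -0.88 and 0.16, where those of APOE were 0.70 and -0.07. LPCAT3, a phospholipid remodelling enzyme and LXR target, changed by -0.88 and 0.13. TMEM97, an endoplasmic reticulum protein that binds NPC1, changed by 0.83 and -0.57, the signs of INSIG1 (0.67 and -0.35) and not those of NPC1 (-0.98 and 0.28).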
